A study of Mus musculus with 3 samples.

Results

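The nuclear genes that encode the respiratory chain were examined for promoter accessibility in long-term hematopoietic stem cells (LT-HSCs) of aged mice. Members were all protein-coding genes of the mm10 assembly whose symbols begin with Ndufa, Ndufb, Ndufc, Ndufs, Ndufv, Uqcr, Cox4 to Cox8 or Atp5, together with Sdha, Sdhb, Sdhc and Sdhd. These were 94 gene records (93 symbols, because Atp5o has 2 records) of 21938 protein-coding genes. Genes with other names, such as Cyc1, and the subunits encoded by mitochondrial DNA were outside the rule. The cells were bone marrow cells of C57BL/6 mice that were female, wild-type and 24 months old. They were enriched for c-Kit, sorted by flow cytometry and run through DOGMA-seq, a 10x workflow that reads open chromatin (ATAC), RNA and oligonucleotide-tagged antibodies in the same cell. The study used these libraries to relate surface markers to platelet-biased (PLT-HSC) and multilineage (MUL-HSC) stem cells. There was 1 pool, the number of mice in it was not given in the sources used here, and there was 1 library of each kind. No comparison therefore had a replicate, no test was made, and every interval covers counting error only.

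The respiratory chain sits in the inner mitochondrial membrane. Complex I (NADH dehydrogenase) and complex II (succinate dehydrogenase) pass electrons to ubiquinone, complex III passes them to cytochrome c and complex IV passes them to oxygen. Complexes I, III and IV pump protons, and the ATP synthase (complex V) makes ATP from the resulting gradient. Nearly all subunits are encoded in the nucleus and imported, and factors such as NRF1, GABP and YY1 are known to bind many of the promoters. Adult LT-HSCs are known for a quiescent state that relies little on respiration.

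Of 4369 barcodes called as cells, 3724 also carried antibody counts, and the 3629 with 10 or more antibody tags were kept. They held 38554133 nuclear fragments, with a median of 10300 fragments, 1978 RNA UMIs and 29 tags per cell. Doublets were not removed, and 264 cells (7.27%) had an excess of sites covered by 3 or more fragments. Promoters of 10 HSC marker genes had a median level of 13.4 fragments per window per 1000000 nuclear fragments, against 7.24 for 5 erythroid, 1.70 for 6 granulocyte and macrophage, 1.04 for 4 B cell and 0.623 for 4 T cell genes. The HSC genes ranged from 0.493 (Mecom) to 46.0 (Mllt3). The 3 stroma genes had a median of 11.0. The HSC list therefore had the highest median, but its range overlapped those of the erythroid list, where Epor stood at 13.7, and of the stroma list, and these promoters did not separate the LT-HSC label from either.

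Promoter sequences of 8 members are printed to show the range from the most open subunit promoters to a closed muscle isoform. Sequences are those of RefSeq on GRCm38.p6, from 250 bases before to 50 bases after the gene start, 5′ to 3′. Capitals mark the searched letters on either strand: NRF1 (GCGCATGCG), ETS/GABP (CCGGAAGT), SP1 (GGGGCGGGG), YY1 (AAGATGGCG), the CCAAT box by its own letters, CRE (TGACGTCA) and, for the TATA box, the letters TATAAA. The windows are Ndufa11 at chr17:56717512-56717811 (plus strand), Ndufaf8 at chr11:120098684-120098983 (plus strand), Sdhb at chr4:140961021-140961320 (plus strand), Uqcrh at chr4:116075021-116075320 (minus strand), Uqcr11 at chr10:80406772-80407071 (minus strand), Cox8a at chr19:7217567-7217866 (minus strand), Atp5g1 at chr11:96075582-96075881 (minus strand) and Cox8b at chr7:140900397-140900696 (minus strand).
Ndufa11: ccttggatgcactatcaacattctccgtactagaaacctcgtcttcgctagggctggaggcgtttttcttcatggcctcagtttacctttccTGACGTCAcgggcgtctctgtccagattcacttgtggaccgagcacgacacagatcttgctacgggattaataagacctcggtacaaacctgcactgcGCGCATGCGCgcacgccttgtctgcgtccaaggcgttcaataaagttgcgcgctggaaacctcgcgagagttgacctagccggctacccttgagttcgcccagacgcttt
Ndufaf8: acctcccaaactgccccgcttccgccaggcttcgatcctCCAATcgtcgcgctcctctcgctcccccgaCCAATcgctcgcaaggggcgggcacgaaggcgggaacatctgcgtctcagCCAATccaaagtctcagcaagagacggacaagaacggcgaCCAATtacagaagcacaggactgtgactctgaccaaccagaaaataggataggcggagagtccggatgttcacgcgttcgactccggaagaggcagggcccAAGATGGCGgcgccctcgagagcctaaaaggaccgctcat
Sdhb: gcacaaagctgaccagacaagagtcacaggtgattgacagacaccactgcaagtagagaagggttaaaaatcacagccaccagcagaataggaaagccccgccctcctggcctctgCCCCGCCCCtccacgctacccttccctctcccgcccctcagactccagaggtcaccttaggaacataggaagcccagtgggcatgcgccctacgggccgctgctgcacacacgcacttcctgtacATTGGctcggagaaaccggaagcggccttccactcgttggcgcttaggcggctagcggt
Uqcrh: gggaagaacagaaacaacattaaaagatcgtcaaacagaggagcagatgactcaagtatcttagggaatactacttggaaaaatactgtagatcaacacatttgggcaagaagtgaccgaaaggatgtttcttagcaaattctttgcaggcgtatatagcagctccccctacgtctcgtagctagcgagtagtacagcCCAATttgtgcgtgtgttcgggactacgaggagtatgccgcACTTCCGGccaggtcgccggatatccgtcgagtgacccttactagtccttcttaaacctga
Uqcr11: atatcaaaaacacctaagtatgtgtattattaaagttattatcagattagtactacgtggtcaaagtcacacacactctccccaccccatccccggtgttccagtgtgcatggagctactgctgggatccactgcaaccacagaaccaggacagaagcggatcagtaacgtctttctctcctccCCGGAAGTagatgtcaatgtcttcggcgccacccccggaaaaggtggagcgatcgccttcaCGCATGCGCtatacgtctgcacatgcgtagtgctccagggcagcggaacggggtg
Cox8a: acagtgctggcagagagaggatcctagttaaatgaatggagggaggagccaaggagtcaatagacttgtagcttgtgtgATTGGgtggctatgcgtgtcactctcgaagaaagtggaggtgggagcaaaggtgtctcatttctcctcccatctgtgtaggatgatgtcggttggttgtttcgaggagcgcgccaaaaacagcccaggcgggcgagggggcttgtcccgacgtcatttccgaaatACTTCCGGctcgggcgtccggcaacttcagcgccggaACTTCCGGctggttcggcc
Atp5g1: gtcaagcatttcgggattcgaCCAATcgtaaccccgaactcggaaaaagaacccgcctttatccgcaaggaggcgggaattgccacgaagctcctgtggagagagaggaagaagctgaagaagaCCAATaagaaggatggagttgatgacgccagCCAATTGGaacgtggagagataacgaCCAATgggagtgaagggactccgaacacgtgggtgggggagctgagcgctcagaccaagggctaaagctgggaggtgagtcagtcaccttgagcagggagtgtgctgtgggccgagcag
Cox8b: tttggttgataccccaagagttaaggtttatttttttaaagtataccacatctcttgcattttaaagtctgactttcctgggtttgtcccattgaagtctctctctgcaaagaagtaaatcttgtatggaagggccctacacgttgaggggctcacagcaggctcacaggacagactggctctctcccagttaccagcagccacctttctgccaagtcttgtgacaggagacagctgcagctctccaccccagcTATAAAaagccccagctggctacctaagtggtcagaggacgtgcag

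Ndufa11 carried the NRF1 letters on both strands, in overlapping matches from 60 and 59 bases before the start, and a CRE at -158. Ndufaf8 held the YY1 letters 11 bases into the transcript behind 4 CCAAT boxes. Cox8a held the ETS letters at -6 and at 32, and Uqcrh held them at -11. Atp5g1 had 5 matches to CCAAT, of which a pair overlapped. Sdhb had an SP1 match at -134. Uqcr11 carried both the ETS letters at -66 and the NRF1 letters at -5, yet its promoter was among the least open of complex III. Cox8b had the TATA letters 5 bases into the transcript and none of the others.

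Of the members, 74 of the 93 symbols matched a RefSeq promoter, 62 of them with a start within 100 bp of the start used here. Among the 70 matched members that are not tissue isoforms, 10 (14.3%) held the NRF1 letters, against 2.36% of 17418 other coding promoters. The YY1 letters were in 7 (10.0%) of these members and in 1.91% of the others. For the CRE the count was 4 (5.71%) against 2.33%. The ETS letters were in 5 (7.14%) against 5.28%, SP1 in 10 (14.3%) against 15.5%, CCAAT in 30 (42.9%) against 39.0%, and TATA in 5 (7.14%) against 13.4%. NRF1 and YY1 therefore had the widest gaps. The 9934 other promoters with at least 200 fragments held the NRF1 letters in 3.72% and the YY1 letters in 3.10%, again below the members. Against these open promoters the members had SP1 less often (23.5% of the open promoters) and ETS slightly less often (8.24%), while CCAAT (38.1%), CRE (3.46%) and TATA (6.42%) were somewhat more frequent in the members. For ETS and TATA the direction therefore turned with the promoters chosen for comparison. With only 5 members for ETS, 5 for TATA and 4 for CRE, these directions rest on few promoters and cannot be read as a result about the members. Members were also CpG-rich, with a median observed-over-expected CpG ratio of 0.83, against 0.57 for the other promoters and 0.77 for the open ones. Within the members, the 10 with NRF1 had a median level of 23.1, against 27.2 for the 60 without, and the 7 with YY1 had 18.5 against 27.1. Members with the other letters had higher medians than those without: 38.2 against 25.5 for ETS, 34.6 against 23.8 for CCAAT, 33.8 against 24.5 for CRE, 32.7 against 25.5 for TATA and 28.8 against 25.7 for SP1. A match describes the letters only and says nothing of binding.

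Promoter level was the number of ATAC fragments that overlapped 1 kb on each side of the 5′ end of the gene, per 1000000 nuclear fragments of the kept cells. All windows have the same length, so levels can be set side by side between genes. The 94 members had a median level of 24.8, against 9.91 for all coding promoters, which placed the median member at the 69.6th percentile. In all, 82 members (87.2%) lay above the median of all coding genes. The range ran from 0.0519 for Cox7b2 to 88.7 for Uqcrq. The 1135 olfactory receptor promoters, taken as closed chromatin, had a median of 0.0259. The median member had a fragment in 21.7% of cells, against 9.26% for the median coding gene and 0.0276% for the median olfactory receptor gene.

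Housekeeping lists of other function lay near or above the members. The median was 24.7 for 78 mitochondrial ribosomal protein genes, 31.6 for 40 proteasome genes and 35.2 for 98 genes of a cytosolic ribosomal list. These lists were taken by symbol alone. The cytosolic list holds all symbols that begin with Rpl or Rps and a digit, and can include genes that encode no ribosomal protein. Among metabolic lists, 15 genes of the pyruvate dehydrogenase complex and TCA cycle had a median of 38.8, and 21 records of the glycolysis list had 29.6. Regulators of mitochondrial genes had a median of 36.4 (16 genes), and assembly factors of complexes II to V had 29.8 (29 genes). The members were thus as open as the mitochondrial ribosome and somewhat below the other lists.

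**Figure D1:**
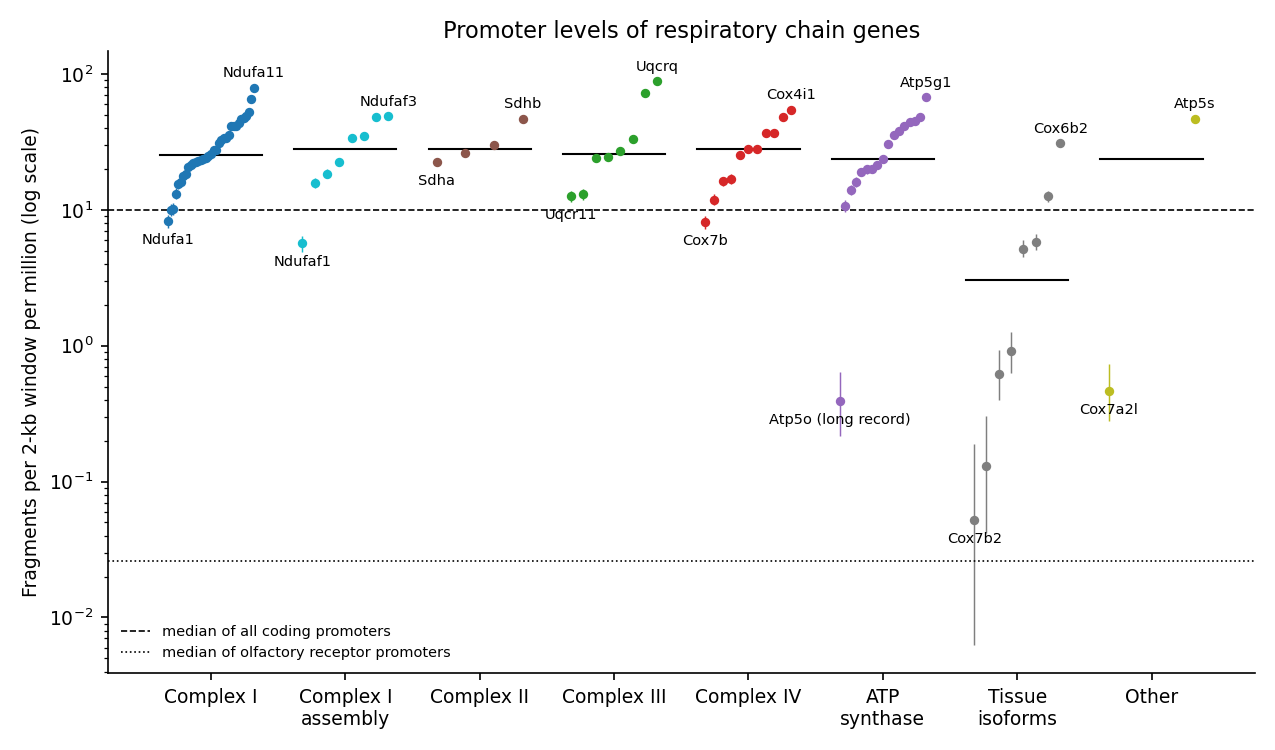
Promoter level of each member by complex (fragments per 2-kb window per 1000000 nuclear fragments, log axis). Points are gene records (1 is not shown) with exact 95% Poisson intervals, bars are medians, and dashed and dotted lines are the medians of all coding (9.91) and olfactory receptor (0.0259) promoters. The complexes overlap, with medians from 23.8 to 28.1, and the tissue isoforms spread down to 0.0519.

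At the start used, the complexes had much the same medians. Complex I had 25.2 (36 members), its assembly factors 28.1 (8), complex II 28.0 (4), complex III 25.9 (8), complex IV without tissue isoforms 28.0 (11) and the ATP synthase 23.8 (17). Spread within a complex was far wider than the differences between complexes. In the ATP synthase, levels ran from 0.389 to 67.6. The lowest value is that of a second, long record of Atp5o, and the next lowest was 10.7 for Atp5j2. The order of the complexes depended on the start: at the most open coding start of each gene the ATP synthase had the highest median (35.6), and the others had 25.9 to 28.1.

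Within complex I, the most open promoter was that of Ndufa11, an accessory subunit of the membrane arm, with 3055 fragments, a level of 79.2 (95% Poisson interval 76.5 to 82.1) and a fragment in 54.7% of cells. Its window also held the start of another coding gene, and 23.7% of its cut sites lay within 200 bp of the start used. With 500 bp on each side Ndufa11 had 1639 fragments, fewer than Ndufv3 (1914), Ndufv2 (1845), Ndufb5 (1795) and Ndufs8 (1728), which were named after their values had been seen. Ndufa13, another accessory subunit, followed at 65.5 (62.9 to 68.1). In Ndufa13 only 6.02% of cut sites fell within 200 bp of the start used, and its window also held the start of another coding gene, so the level cannot be assigned to Ndufa13 alone. At the low end was the X-linked accessory subunit Ndufa1, at 8.22 (7.34 to 9.18).

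Among assembly factors of complex I, Ndufaf3 (49.0, 46.8 to 51.3) and Ndufaf8 (48.3, 46.1 to 50.5) were highest and their intervals overlapped. Ndufaf8 shared its window with the head-to-head gene Tepsin at 197 bp. Ndufaf1, which helps to build the membrane arm, was lowest at 5.65 (4.93 to 6.46), followed by Ndufaf6 at 15.7. Ndufaf1 was the only assembly factor of complex I below the median of all coding promoters.

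Complex II has 4 subunits, and their promoters fell in the order Sdhb, Sdhc, Sdhd and Sdha. The iron-sulfur subunit Sdhb stood at 46.7 (44.5 to 48.9). The membrane anchors Sdhc and Sdhd stood at 30.1 (28.4 to 31.9) and 26.0 (24.4 to 27.6), and the flavoprotein Sdha at 22.5 (21.0 to 24.0). No neighbouring intervals in this order overlapped. Sdhc, Sdhd and Sdha each shared their window with a head-to-head neighbour, which was Timm8b for Sdhd and Ccdc127 for Sdha, and Sdhb did not.

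Complex III held the highest member of all. Uqcrq, a small subunit at cytochrome b, had 3418 fragments, a level of 88.7 (85.7 to 91.7) and a fragment in 59.3% of cells. Uqcrh, the hinge protein at cytochrome c1, reached 72.8 (70.2 to 75.6). Both had a coding gene head to head, Gdf9 at 192 bp from Uqcrq and Lrrc41 at 198 bp from Uqcrh, and fragments of the pairs could not be split. Uqcr11 (12.6, 11.5 to 13.7) and Uqcrb (13.0, 11.9 to 14.2) were lowest, and these neighbours did not differ beyond their intervals.

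For complex IV, the ubiquitous isoform Cox4i1 was highest at 54.6 (52.3 to 57.0), followed by Cox8a at 47.9 (45.7 to 50.1). Cox4i1 shared its window with a head-to-head coding record, Gm27021 at 143 bp, and fragments of this pair could not be split. Outside the tissue isoforms, the lowest were the X-linked Cox7b at 8.07 (7.19 to 9.01) and Cox6c at 11.9 (10.8 to 13.0). In the ATP synthase, Atp5g1, which encodes the c subunit of the rotor, was highest at the start used, at 67.6 (65.0 to 70.2). The window of the peripheral stalk subunit Atp5f1 followed at 48.0 (45.9 to 50.3). At the most open coding start Atp5d stood at 75.1, above Atp5g1, and Atp5g2 at 49.4, so this order depended on the start. The lowest were the long record of Atp5o at 0.389 (0.218 to 0.642) and Atp5j2 at 10.7 (9.65 to 11.7). The other Atp5o record, which starts at a different position, stood at 23.8 (22.3 to 25.4). In Atp5f1 and Atp5j2 only 3.32% and 4.73% of cut sites lay within 200 bp of the start used. The window of Atp5f1 also held the start of another coding gene, and with 500 bp on each side it had 365 of its 1852 fragments. Its level therefore cannot be assigned to Atp5f1 alone.

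Isoforms used in other tissues ranged from 0.0519 to 30.9. The testis isoforms Cox7b2 and Cox8c had 2 and 5 fragments in all, with levels of 0.0519 (0.00628 to 0.187) and 0.130 (0.0421 to 0.303). The muscle isoforms Cox6a2 and Cox8b had 24 and 35 fragments and levels of 0.623 and 0.908, whereas Cox7a1, also a muscle isoform, stood at 12.5 (11.4 to 13.7). Cox4i2, known from lung, and Ndufa4l2, known as a hypoxia-induced gene, stood at 5.78 and 5.19 with overlapping intervals. Cox6b2, known from testis, was as open as the ubiquitous subunits at 30.9 (29.2 to 32.7). Each isoform could be set beside its ubiquitous counterpart: Cox8a was at 47.9 against 0.908 for Cox8b, Cox6a1 at 28.2 against 0.623 for Cox6a2, and Cox4i1 at 54.6 against 5.78 for Cox4i2. For the Cox6b pair the order was the other way, with Cox6b1 at 16.9 and Cox6b2 at 30.9. These pairs besides the isoforms were chosen after their values had been seen.

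There were 2 members grouped apart from the complexes. Atp5s stood at 46.9 (44.8 to 49.1), with 1808 fragments at the start used and 1809 at its most open coding start. Cox7a2l, a factor of respiratory supercomplexes, had 18 fragments at the 5′ end of its record, and 1679 at its most open coding start. The choice of the most open start also raised Atp5d from 771 to 2896 and Atp5g2 from 617 to 1905 fragments, and 90 of the 94 records changed by less than 1.5-fold.

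Members on the X chromosome were less open than most. Ndufb11 stood at 23.3 (21.8 to 24.9), Ndufa1 at 8.22 and Cox7b at 8.07, a median of 8.22 for 3 members against 25.5 for 91 on autosomes. Among all coding promoters with at least 200 fragments the medians were 14.3 on the X and 26.1 on autosomes, so that X-linked promoters were also lower outside the respiratory chain.

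Members often stood head to head with another coding gene. A coding gene in the opposite direction began within 1 kb upstream in 23 of 94 (24.5%), against 6.79% of all coding genes, and 35 windows (37.2%) held the start of another coding gene, against 12.6%. Genes of the cytosolic ribosomal list stood head to head in 10.2% and mitochondrial ribosomal protein genes in 23.1%. The 35 shared windows had a median level of 33.8, against 22.0 for the other 59. The next values cover only records with at least 200 fragments, which were 87 members and 12928 coding genes. Among these, the median share of cut sites within 200 bp of the start was 59.0% for members and 49.2% for coding genes. The median share of fragments shorter than the DNA of 1 nucleosome was 40.6% and 37.9%.

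**Figure D2:**
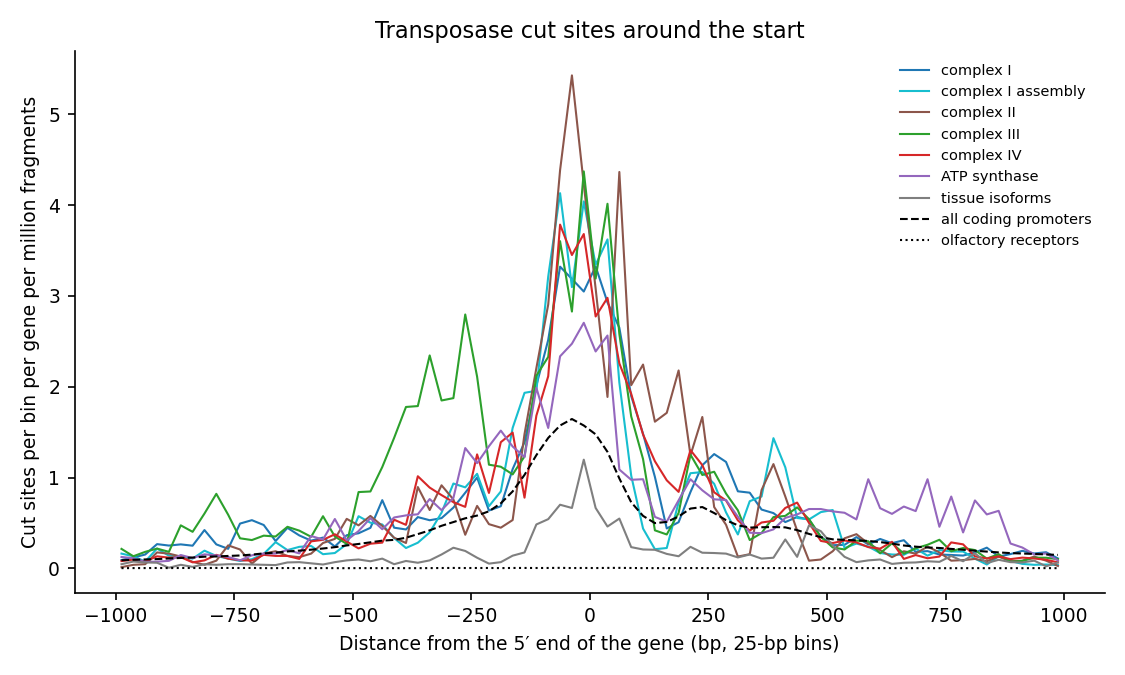
Mean transposase cut sites per 25-bp bin per gene and 1000000 fragments, by distance from the 5′ end of the gene (bp; negative is upstream), for each complex, all coding promoters (dashed) and olfactory receptor genes (dotted). All complexes peak within 63 bp of the start at 2.70 to 5.43 cut sites, above 1.64 for all coding promoters, and the tissue isoforms reach 1.20.

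Cut sites were densest near the start in every complex. They peaked 12 bp downstream of the start in complex I and 13 to 63 bp upstream in the others. In complex I the bin at -63 bp was nearly as high (3.32 against 3.33), so the position of its peak does not set it apart. The peak was 20.9 times the window edge for complex I, 72.8 times for complex II, 30.1 times for complex III, 39.3 times for complex IV and 21.3 times for the ATP synthase, against 13.1 times for all coding promoters and 2.23 times for olfactory receptor genes. Complex II, with the steepest profile, has 4 genes only. Complex III had a shoulder that reached 2.79 cut sites at -263 bp, against 4.37 at its peak. In the ATP synthase 0.981 cut sites were still found at 587 and 712 bp, against 2.70 at its peak.

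Mitochondrial DNA is itself cut by the transposase, and its share of the ATAC reads of a cell gave a measure that the choice of members did not use. The cells had been permeabilised with digitonin and washed before the assay. Whether the share follows the mitochondrial content of a cell, or how much mitochondrial DNA was retained, was not tested. The group names below refer to read share only. The share had a median of 0.215% and ranged from 0 to 11.5%. The 1209 cells with the highest share (median 0.588%, "mitochondria-rich") were set against the 1209 with the lowest (median 0.0430%, "mitochondria-poor"). Summed over all members, the level was 2663 (2635 to 2692) in mitochondria-poor cells, 2633 (2605 to 2661) in the middle group and 2602 (2574 to 2629) in mitochondria-rich cells. The log2 ratio of the outer groups was -0.03 (-0.06 to -0.01), while all coding promoters together gave -0.02. The difference between cells that differed several-fold in mitochondrial reads was therefore small. Mitochondria-rich cells also had slightly lower promoter shares (39.7% against 40.3% of fragments) and more cells with excess overlap (9.26% against 5.79%). With levels scaled by promoter fragments, with groups taken within strata of depth or of promoter share, or without the cells with excess overlap, the interval included 0. With at least 50 tags (363 cells) the ratio was larger, at -0.093 (-0.16 to -0.03).

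By complex, the summed log2 ratio was -0.01 (-0.04 to 0.02) for complex I, -0.05 (-0.15 to 0.05) for complex II, 0.01 (-0.06 to 0.07) for complex III and -0.04 (-0.10 to 0.02) for complex IV. The ATP synthase (-0.07, -0.12 to -0.02) and the assembly factors of complex I (-0.09, -0.16 to -0.02) had intervals below 0. The ratio of all coding promoters together, given above, was also below 0 and lay near the upper bounds of both intervals. In the ATP synthase the level did not fall step by step, since it was 503 (490 to 515) in the lowest, 505 (493 to 517) in the middle and 479 (467 to 491) in the highest group. The same held for the assembly factors, which stood at 239, 223 and 224.

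Single members were compared where both groups together held at least 200 fragments, which 84 members did, and a member was counted when its level differed by a log2 ratio of 0.32 or more in either direction. Of these 84, 37 were higher and 47 lower in mitochondria-rich cells, with a median log2 ratio of -0.01 beside -0.02 over all coding promoters. Only Uqcrb passed upward, which is 1 of 84, where 0.997% of all coding promoters tested did so. Uqcrb had 188 fragments in mitochondria-rich and 126 in mitochondria-poor cells (levels 14.3 and 10.0, log2 ratio 0.51, 0.18 to 0.85). Only Sdha passed downward, where 1.55% of all did so. Sdha had 260 and 320 fragments (levels 19.8 and 25.5, log2 ratio -0.36, -0.60 to -0.12). Just outside the threshold were Atp5k, subunit e of the ATP synthase, at 0.27 and the assembly factor Ndufaf7 at -0.31. Counting intervals instead, 3 members lay above 0 (background 1.88%) and 4 below (background 4.63%). The former were Uqcrb, Ndufb2 (0.22) and Atp5k, and the lowest of the latter were Sdha, Ndufaf7 and Ndufaf8 (-0.25). Counts this small were close to those of promoters in general.

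**Figure D3:**
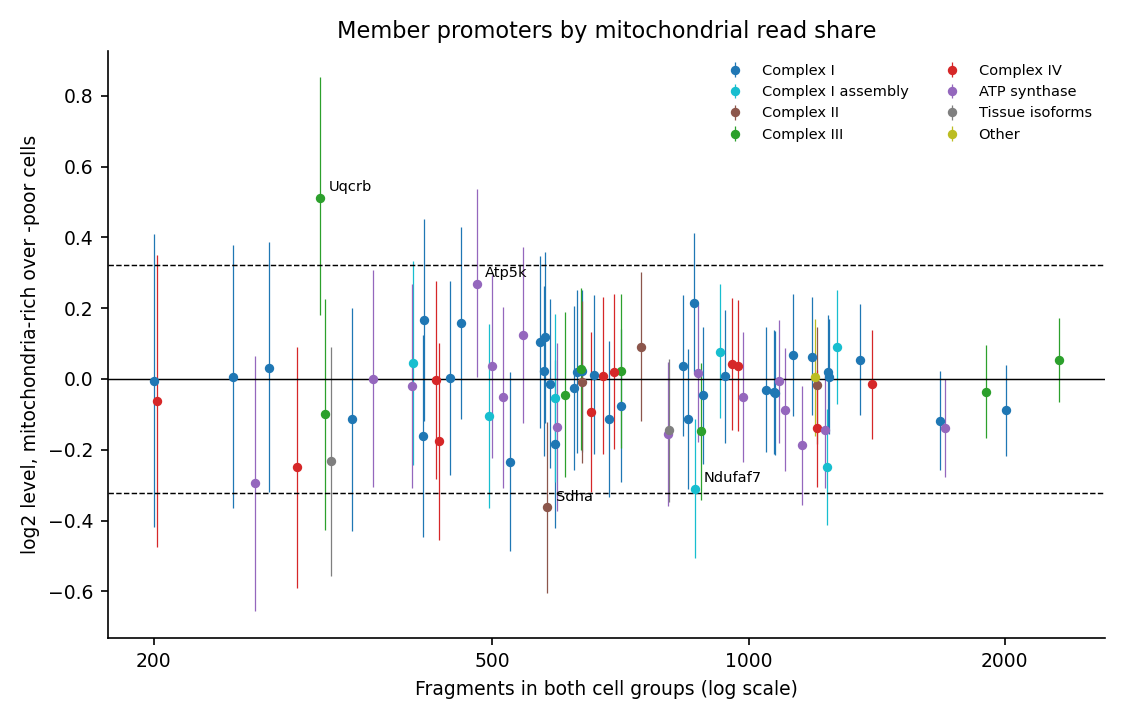
The log2 ratio of promoter level in mitochondria-rich over mitochondria-poor cells for the 84 members tested, against their fragments in both groups (log axis), with exact conditional binomial 95% intervals. Dashed lines mark a log2 ratio of 0.32 in either direction, which Uqcrb (0.51) and Sdha (-0.36) pass.

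Cells were also ranked by the total RNA UMIs of each cell per nuclear ATAC fragment, a measure that shares its denominator with the promoter level. The 1209 cells with the most RNA per fragment ("RNA-rich") had a summed member level of 2704 (2673 to 2736), and the 1209 with the least ("RNA-poor") had 2579 (2553 to 2605). The log2 ratio was 0.07 (0.05 to 0.09) and that of all coding promoters 0.06. RNA-rich cells also had fewer fragments (median 8248 against 11522) and a higher promoter share (40.9% against 39.3%). Scaled by promoter fragments the ratio was 0.01 (-0.01 to 0.03), and ranked by UMIs per cell it turned to -0.11 (-0.13 to -0.09), so its direction rested on how RNA content was expressed. The ratio of all coding promoters in the ranking by UMIs per cell is not given here. The -0.11 therefore cannot be read as particular to the members.

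Among 83 members tested, 55 were higher and 28 lower in RNA-rich cells. Past the threshold were 3 higher and 1 lower, beside 1.52% and 1.62% of all coding promoters. The 3 were Uqcr11 (named after its value had been seen, 0.37, 0.05 to 0.70), Cox7c (0.35, 0.06 to 0.64) and Atp5j2 (0.35, -0.01 to 0.70), and the lower one was Atp5e, the epsilon subunit of the ATP synthase (-0.37, -0.69 to -0.06). Intervals lay above 0 for 12 members and below for 1, beside 10.8% and 2.01% of all promoters. The highest lower bounds belonged to Cox6b2 (0.29, 0.09 to 0.49), Uqcrq (0.18, 0.06 to 0.30) and Cox7c. The lowest upper bounds after Atp5e were those of Sdhc (-0.18) and Cox5a (-0.11), both with intervals that included 0. The 12 of 83 were close to the share among all promoters.

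The 4 surface markers of the study were used to gate cells: PLT-gated cells had counts over the median for CD274 and CD61 and no higher than the median for CD27 and CD357, and MUL-gated cells the opposite. The medians were 19 tags for CD274, 3 for CD61, 3 for CD357 and 1 for CD27, so the gates rest on few tags for 3 of the markers. PLT-gated cells also had more tags in all (median 37 against 26). The gates held 342 and 61 cells, with a summed member level of 2634 (2581 to 2688) in PLT-gated and 2714 (2584 to 2849) in MUL-gated cells. The log2 ratio was -0.04 (-0.12 to 0.03), so a difference between the gates was not detectable at this depth. Only 10 members held 200 fragments over both gates, 1 passed the threshold upward and 0 downward, where 11.3% and 10.9% of all promoters did so. That one, Ndufaf8, had 183 and 23 fragments (levels 51.6 and 38.3, log2 ratio 0.40, -0.20 to 1.13). The lowest of the 10 was Ndufa11, with 273 and 54 fragments (-0.23, -0.65 to 0.23).

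For each of the 12 antibodies, cells above the median count were set against the rest. The median was 0 for CD68, CD106, CD201, P2X7R, CD163, CD183, CD206 and MERTK. For these, cells with any tag were set against cells with none, which describes tag detection near the floor. CD201 tags were found in 30.8% of cells. Summed over the members, the log2 ratio ran from -0.02 (CD163, 71 cells above) to 0.03 (CD201). CD201 (EPCR, encoded by Procr and a known HSC marker) was the single antibody with an interval that left out 0 (0.01 to 0.05), and all coding promoters gave 0.02 in the same cells. Its highest members by lower bound were Uqcr10 (0.27, 0.08 to 0.46), Atp5j (0.20) and Ndufv3 (0.18). Without the cells with excess overlap, or without the deepest 5% of cells, no antibody of the 12 did so. For the PLT markers the ratio was -0.0080 (CD274) and 0.0049 (CD61), and for the MUL markers -0.0032 (CD27) and 0.0065 (CD357).

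**Figure D4:**
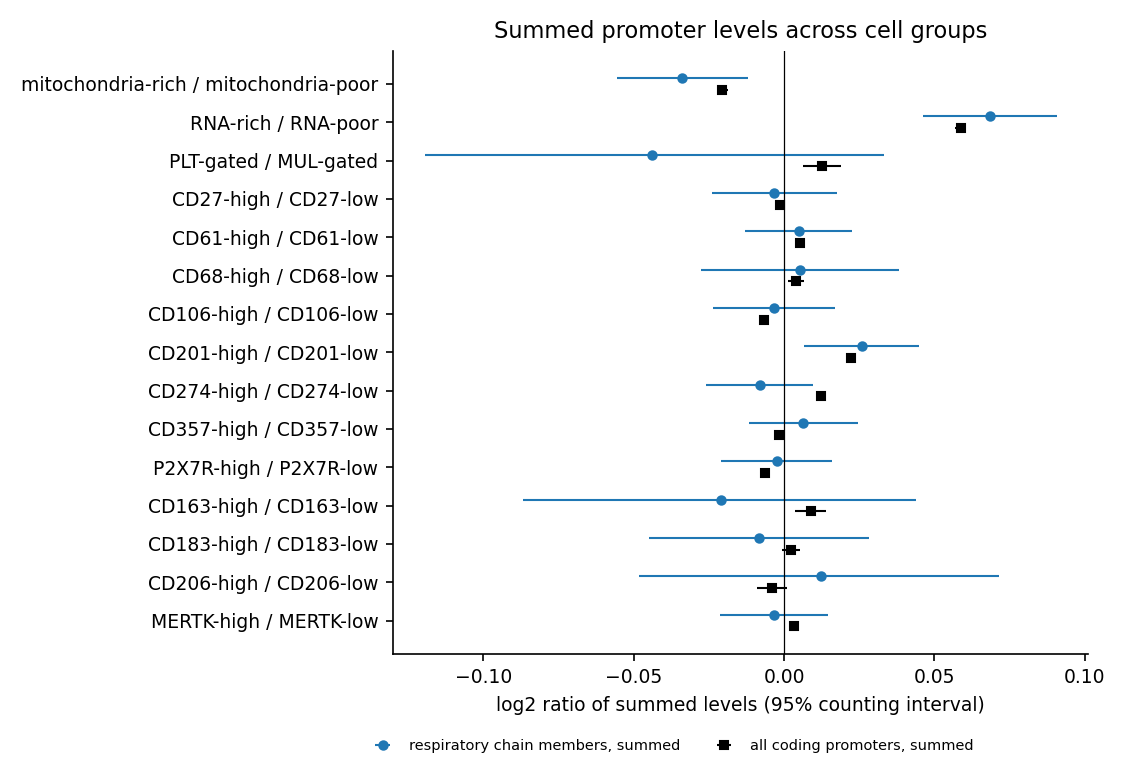
The log2 ratio of summed promoter levels, high over low cells, for each grouping of cells: the respiratory chain members (circles) and all coding promoters (squares), with 95% counting intervals. Member ratios lie between -0.04 and 0.07, and the intervals of the members include the value of all coding promoters except in the CD274 comparison.

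At the level of single members, CD274 showed the most departures among the 4 markers. In CD274-high cells 6 of 87 members were lower past the threshold, beside 0.951% of all coding promoters, and 1 was higher, beside 1.66%. The 6 were Ndufa8, Ndufa1, Ndufs6, Cox4i2, Ndufaf4 and Uqcrb, which belong to complexes I, III and IV and to the assembly of complex I. Ndufa8, an accessory subunit, had 384 fragments in CD274-high and 542 in CD274-low cells (levels 20.6 and 27.2, log2 ratio -0.40, -0.59 to -0.21). Ndufs6, an accessory subunit of the peripheral arm, had 301 and 411 (-0.35, -0.57 to -0.14), and Ndufaf4 had 368 and 494 (-0.33, -0.53 to -0.13). Ndufa1 (-0.37, -0.71 to -0.04) and Uqcrb (-0.33, -0.59 to -0.07) had intervals below 0 and Cox4i2 did not (-0.33, -0.73 to 0.06). The member that was higher, Ndufa4l2, had 112 and 88 fragments (0.44, 0.03 to 0.86). Across all 87 the median was -0.01, with 39 higher and 48 lower. CD274 made up most tags of a cell (median 19 of 29), and CD274-high cells had more tags in all (39 against 22) and more excess overlap (9.55% against 5.21%). After the summed counts of the other antibodies were regressed out, 2 of 87 members were past the threshold downward, beside 0.812% of all coding promoters.

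The other 3 markers showed little. For CD61, 0 members were higher (background 1.23%) and 2 lower (background 0.851%): Cox6c, with 183 and 275 fragments (-0.44, -0.72 to -0.17), and Cox4i2 (-0.34, -0.74 to 0.06), while Atp5b, the catalytic beta subunit, stood at -0.19 (-0.33 to -0.05) and Ndufs3 at -0.30. On the upper side were Ndufaf8 (0.17), Uqcrfs1 (the Rieske iron-sulfur protein, 0.19) and Ndufab1 (the acyl carrier protein, 0.20). For CD27, 1 was higher (background 1.48%) and 1 lower (background 1.77%). These were Ndufaf1, with 73 and 145 fragments (levels 7.94 and 4.94, 0.69, 0.26 to 1.10), and Ndufa1, with 59 and 258 (-0.44, -0.89 to -0.04). For CD357 there were 0 higher (background 0.851%) and 0 lower (background 1.27%), and the highest lower bound was that of Ndufv1 (0.21, 0.07 to 0.35). Ndufaf5 (0.24, 0.02 to 0.45) and Ndufab1 (-0.22, -0.42 to -0.03) had ratios further from 0.

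Across single cells, the members together gave a median of 27 fragments per cell, from 14 at the 5th to 44 at the 95th percentile, or 0.658% of all promoter fragments. The variance of this sum was 1.10 times that of binomial sampling of the promoter fragments of each cell. The same ratio was 1.11 for the TCA cycle list, 1.12 for glycolysis, 1.14 for the cytosolic and 1.22 for the mitochondrial ribosomal list, and 1.16 for the proteasome. Given the promoter fragments of each cell, the spread of the members was therefore close to the size that counting gives.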

How the data were processed

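LT-HSCs from 1 pool were measured in 3 libraries, and the ATAC and antibody libraries and the per-barcode metrics were used. Per the file headers and labels, the authors aligned ATAC and RNA reads to mm10 with Cell Ranger ARC 2.0.2, which called cells jointly, removed duplicates and corrected fragment ends for the transposase offset. What the authors deposited were counts without normalization: fragments, reads and UMIs per barcode, and antibody tags per cell. Tags were counted with CITE-seq-Count (version not stated). The mitochondrial share was mitochondrial over raw ATAC reads, since the fragment file holds no mitochondrial contig.

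Gene records came from GENCODE M21. A fragment was counted in a window when it overlapped 1 kb on either side of the 5′ end of the record. Levels have exact 95% Poisson intervals. Before log2 ratios were taken 0.5 was added to counts, and ratios have exact conditional binomial intervals, and promoters with at least 200 fragments over both groups were compared. The percentages given as background are the share of all such coding promoters past the same limit. Doublet-like cells had more sites under at least 3 overlapping fragments (none longer than 900 bp) than a Poisson expectation gives (adjusted value below 0.01). On simulated counts for the mitochondrial comparison (11839 promoters), 99.0% of 200 promoters changed 1.5-fold were found, and the true ratio lay in 95.6% of intervals. Of the unchanged promoters, 1.90% passed the threshold of 1.25-fold, and 4.40% had intervals that left out equality. The planted change was larger than this threshold, so recovery of smaller changes was not tested. Coverage near 95% follows from the design of intervals for counting error, and does not test them on real cells.

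The members and lists were chosen with earlier results of these data known. Genes named are the 2 highest and 2 lowest of each complex, the complex II subunits, tissue isoforms and X-linked members, and, for each grouping shown in detail, those with the most extreme interval bounds or nearest the threshold. Others are said to be named after their values had been seen. Some names that the rule would give are not reported here. Python 3.11.15, numpy 2.4.6, scipy 1.17.1 and pandas 2.3.3 were used. Alternatives changed the window, cut sites, tag minimum, doublet and depth filters, start, scaling, grouping and fragment minimum.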

Additional observations from a re-analysis of the deposited data

Results flagged for a closer look

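Fragments in barcodes not called as cells, which no comparison used, also covered the member promoters. Their summed level there was 2273 (95% Poisson interval 2218 to 2330) per 1000000 nuclear fragments, from 6360 fragments, against 2632 (2616 to 2649) in the kept cells. This signal was flagged because it lay in data outside the main measurement and far above a count of 0. As a share of all promoter fragments the members made up 0.698% in those barcodes and 0.658% in the kept cells. Called cells without antibody counts had 2867 (2775 to 2961), and cells with under 10 tags had 2672 (2575 to 2772).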

How the results depend on the processing

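No paired analysis was possible because each kind of library had 1 sample, and for the same reason no replicate could be left out. The percentile of the median member, 69.6, was 71.9 with a window of 500 bp on each side, 70.3 with cut sites and 68.9 with at least 50 tags (363 cells). It stayed within its interval under the other alternatives. The summed mitochondrial ratio of -0.03 was -0.093 with at least 50 tags. The summed RNA ratio of 0.07 was 0.0097 when scaled by promoter fragments and reversed to -0.11 when cells were ranked by RNA UMIs per cell. The number of antibodies with an interval that left out 0, which was 1, was 0 without cells with excess overlap and 0 without the deepest 5% of cells.

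Numbers of members past the log2 threshold of 0.32 were small and moved more. For the mitochondrial groups (2 members) they were 5 with cut sites, 0 with at least 50 tags, 1 without the deepest cells, 6 with a minimum of 20 fragments and 10 with none. For the gates (1 member) they were 0 with the 500-bp window, no tag minimum, at least 50 tags, no excess-overlap cells or no deepest cells, and were 15 with cut sites, 4 with the centered log ratio, 35 with a minimum of 20 fragments and 38 with none. For RNA (4 members) they were 2 with no tag minimum, 1 with at least 50 tags, 1 with promoter scaling, 2 with UMIs per cell, 7 with a minimum of 20 fragments and 12 with none. A lower minimum tests more members with few fragments. At the main setting 11.3% of all coding promoters passed upward and 10.9% downward between the gates. The shares of all coding promoters under the alternatives above are not given here. These counts therefore cannot be read as a result about the members. The cause of the other changes was not tested. The 6 members lower in CD274-high cells were 5 or 6 under most alternatives, 2 with residual counts and 0 with at least 50 tags, where 14 members could be tested. Beside them, 0.951% of all coding promoters were lower at the main setting and 0.812% with residual counts. The shares under the other alternatives are not given here, so the counts under these cannot be read as a result about the members. All alternatives drew on the same pool of cells. A limit of all these results is the single pool of cells.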
